A study of Mus musculus with 6 samples.

Results

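The genes described here are those of Wnt signalling in mouse pancreatic islets: the Wnt ligands, the Frizzled receptors and LRP co-receptors, the secreted SFRP and DKK antagonists, the proteins that control receptor turnover, and the Dishevelled, Axin, β-catenin and TCF/LEF effectors. They were taken by gene name from the protein-coding entries of the deposited table, which gave 53 genes of 54532 in all. Messenger RNA was sequenced from islets of 7-week-old mice in 6 libraries, and each library pooled the islets of 3 mice. The controls were Wtap flox/flox mice (3 libraries), in which both copies of Wtap carry recombination sites, and the other group was labelled Wtap-βKO (3 libraries), a deletion of Wtap aimed at insulin-producing β cells. The labels do not name the Cre driver or the deleted part of the gene. WTAP is an adaptor of the methyltransferase complex that writes N6-methyladenosine on messenger RNA.

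Wnt proteins are secreted lipid-modified ligands that bind Frizzled receptors together with the co-receptors LRP5 and LRP6. In the canonical branch, receptor binding recruits Dishevelled and Axin, stops the destruction complex from marking β-catenin for degradation, and lets β-catenin enter the nucleus, where it joins TCF/LEF factors at target genes such as Axin2. SFRP proteins hold ligands away from receptors and DKK proteins block the LRP co-receptors, while noncanonical branches act through the cytoskeleton and planar cell polarity. In islets the pathway is known for its part in β-cell growth and maturation, and TCF7L2 for its link to type 2 diabetes.

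Of the 53 genes, 26 reached the mean of 0.5 FPKM over the 6 libraries (fragments counted per gene length and library size) that was set for testing, and 4 of these passed. The ligand gene Wnt4 and the antagonist gene Sfrp5 rose in the libraries labelled Wtap-βKO, 1.503-fold and 1.76-fold, and the receptor gene Fzd7 and the co-receptor gene Lrp5 fell, 2.11-fold and 1.39-fold. The test was limma on log2(FPKM + 1) with a threshold of 0.05 on p-values adjusted by Benjamini-Hochberg over the whole table, and every adjusted p below comes from it unless another test is named. Among all 15927 genes tested 20.1% passed (8.77% higher and 11.3% lower), so a share of 4 in 26 genes (15.4%) is near the background and says nothing particular about Wnt genes as a set. The median log2 fold change was 0.08 over the 26 genes and -0.01 over all genes tested. The groups did not overlap for 9 of the 26 genes (34.6%), 6 of them higher and 3 lower in Wtap-βKO, against 41.3% of all genes tested (19.1% higher and 22.1% lower).

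The RefSeq promoter windows (GRCm38.p6, 250 bases before to 50 after the start site) of the genes that passed are shown for Wnt4, Sfrp5 and Fzd7, since these are the sequences next to the starts of the ligand, antagonist and receptor genes that changed. They lie at chr4:137277385-137277684 on the plus strand, chr19:42202203-42202502 on the minus strand and chr1:59481897-59482196 on the plus strand. Each is written 5′ to 3′ along its gene, with a TCF/LEF motif in capitals.
Wnt4: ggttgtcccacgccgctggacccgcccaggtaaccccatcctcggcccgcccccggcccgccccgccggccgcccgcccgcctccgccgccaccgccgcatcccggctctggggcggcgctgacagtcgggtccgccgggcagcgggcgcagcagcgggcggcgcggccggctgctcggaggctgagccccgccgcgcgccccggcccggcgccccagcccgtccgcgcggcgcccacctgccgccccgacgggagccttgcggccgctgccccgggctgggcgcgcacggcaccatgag
Sfrp5: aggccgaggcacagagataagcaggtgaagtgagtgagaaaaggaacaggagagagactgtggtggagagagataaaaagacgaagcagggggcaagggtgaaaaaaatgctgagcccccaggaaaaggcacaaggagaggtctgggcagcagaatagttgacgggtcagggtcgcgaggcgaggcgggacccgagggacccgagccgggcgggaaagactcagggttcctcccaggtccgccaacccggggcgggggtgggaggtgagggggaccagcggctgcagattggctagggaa
Fzd7: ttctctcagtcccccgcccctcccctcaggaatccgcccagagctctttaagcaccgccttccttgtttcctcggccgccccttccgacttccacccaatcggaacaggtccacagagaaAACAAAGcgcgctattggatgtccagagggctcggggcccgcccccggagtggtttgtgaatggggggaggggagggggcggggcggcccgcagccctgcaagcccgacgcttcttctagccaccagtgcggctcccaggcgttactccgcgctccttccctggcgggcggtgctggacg
The motifs CTTTGAT and CTTTGTT were searched on both strands. The Fzd7 window holds CTTTGTT once, on the opposite strand, so that it reads AACAAAG here, with its first printed base 130 bases before the start site. No match was present in the Wnt4 and Sfrp5 windows. At least 1 of the motifs was present in 9.33% of all 32851 RefSeq windows, and in 6 of 46 windows (13.0%) of the 36 Wnt genes that the table held. A match is a description of letters and not a measured binding site. The RefSeq start of Fzd7 lies 277 bases before the gene start in the deposited table, and that of Sfrp5 coincides with it. The RefSeq start of Wnt4 lies 146 bases inside the table's gene, so part of its window belongs to the gene as counted. Lrp5 is named only, with no window. The GC content of the Wnt4 window was 84.3%, that of the Fzd7 window 66.7% and that of the Sfrp5 window 61.3%, with a median of 67.3% over the Wnt gene windows and 52.7% over all windows.

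The libraries had between 16353297 and 18682745 recovered reads. Wtap itself was 11.2 ± 0.545 FPKM in controls and 11.8 ± 0.552 in Wtap-βKO (SD, n = 3 each, adjusted p = 0.475), a whole-gene value over all islet cells that may check nothing about a partial deletion, so directions rest on the labels. The β-cell markers fell in 8 of 10 cases, and their summed FPKM was 135142 to 155400 in controls and 81970.5 to 92558.5 in Wtap-βKO. Ins1 fell from 42913 to 16668 mean FPKM (adjusted p = 0.00869, lost in 2 of 18 alternatives with p up to 0.831), Ins2 was 89397 and 56847 (adjusted p = 0.190) and Gcg, the glucagon gene, 22504 and 36405 (adjusted p = 0.0890). Ins2 passed in 5 of 18 alternatives, with adjusted p down to 4.33e-08, and Gcg in 8 of 18, down to 9.86e-06. Of 7 α-cell markers 5 rose (summed FPKM 21333.7 to 25535.9 in controls and 33875.2 to 44732.5 in Wtap-βKO), and of 4 δ-cell markers 3 rose (3945.71 to 4312.15 and 5606.95 to 8272.67). The β-, α- and δ-cell sums were mostly RNA of hormone genes, Ins1 and Ins2, Gcg, and Sst in that order. Of these, Ins2 and Gcg were not called. Of 9 mesenchymal markers tested 6 rose (summed FPKM of all 10 listed, 63.3 to 73.8 in controls and 94.8 to 108 in Wtap-βKO), of 9 acinar markers tested 2 rose (130 to 220 and 215 to 292, all 11 listed), and of 8 endothelial markers 1 rose (159 to 193 and 188 to 213). Among 7 ductal and 7 macrophage markers tested 1 of each rose, among 3 lymphocyte markers 1 rose and 1 fell, among 6 glial and neuronal markers 1 fell, and neither of 2 pancreatic polypeptide cell markers was called. Beside these marker counts, 8.77% of all genes tested were higher and 11.3% lower. No marker of these lists was without a read in all libraries. Since whole islets were measured, fewer cells of a type and less RNA per cell cannot be told apart, and the part of these shifts in the values below was not tested. Replicate 2 labelled Wtap-βKO stood apart from the others on the second principal component (16.2% of the variance). Values without it are given beside Wnt4, Dkk2, Dvl2, Fzd6, Znrf3, Frzb, Rspo4 and Tle1.

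**Figure D1:**
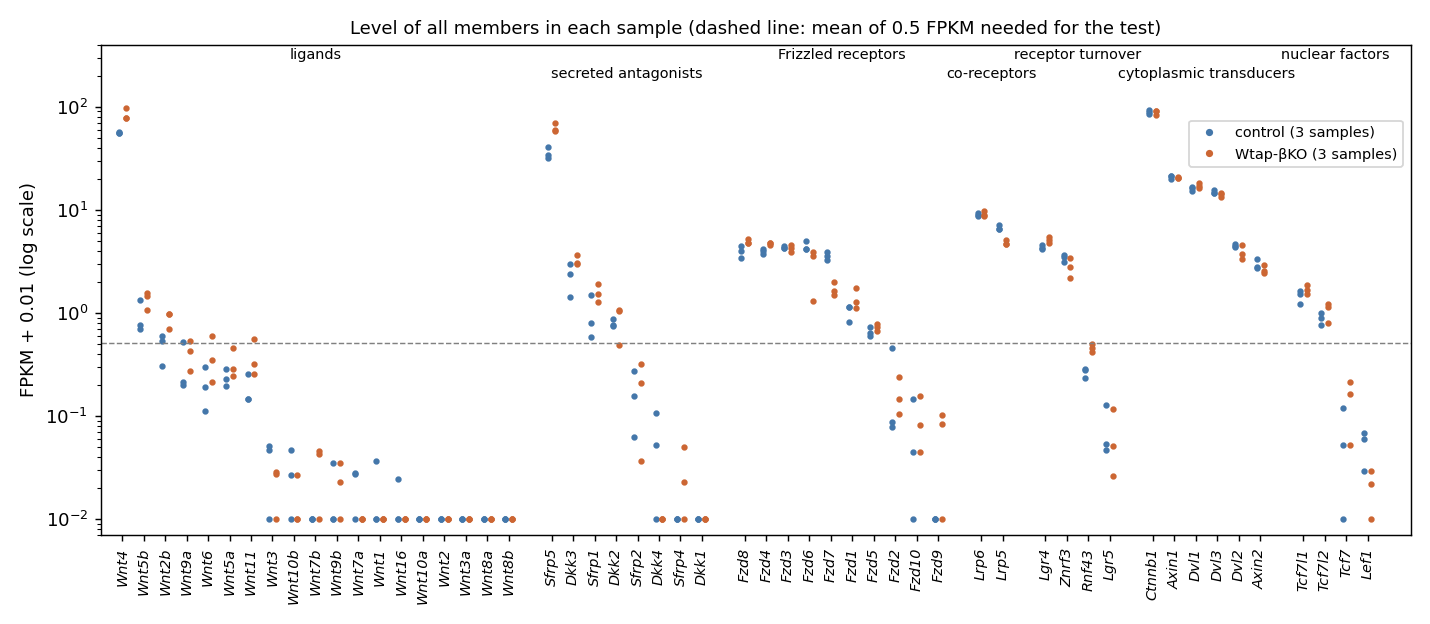
FPKM plus 0.01 on a log axis for all 53 Wnt genes, grouped by role, with 1 point per library (blue controls, orange Wtap-βKO) and a dashed line at the mean of 0.5 FPKM needed for the test. Wnt4, Sfrp5 and Ctnnb1 stand far above the other genes of their roles, and 6 genes lie at 0 in every library.

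Wnt4 was the main Wnt ligand of these islets at the RNA level. The gene occupies bases 137277489 to 137299726 of chromosome 4, plus strand (GRCm38), and WNT4 is a ligand known mostly for noncanonical signalling. Its FPKM was 55.8, 57.3 and 55.7 in controls 1, 2 and 3, and it was 77.7, 98.1 and 78.0 in Wtap-βKO 1, 2 and 3. All 3 Wtap-βKO libraries were above all 3 controls, and replicate 2 was the highest. The mean rose from 56.3 ± 0.913 to 84.6 ± 11.7 (SD, n = 3 each; log2 fold change 0.57, SE 0.095, adjusted p = 0.00839), and without replicate 2 labelled Wtap-βKO the log2 fold change was 0.46 and still passed (adjusted p = 0.00231). Counted over all ligand genes, Wnt4 took 96.0% ± 0.243 of summed Wnt FPKM in controls and 95.7% ± 0.531 in Wtap-βKO, so the summed ligand level of 58.6 ± 0.802 and 88.3 ± 11.7 FPKM followed Wnt4.

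The next ligands were far below it. Wnt5b, a noncanonical ligand, was 0.753, 0.692 and 1.31 FPKM in the controls and 1.06, 1.54 and 1.44 in Wtap-βKO, with overlapping groups (adjusted p = 0.232). Wnt2b, a canonical ligand, was 0.530, 0.588 and 0.294 in the controls and 0.960, 0.971 and 0.690 in Wtap-βKO. The Wnt2b groups did not overlap, on 100 reads in the controls and 199 in Wtap-βKO, but the difference did not pass (log2 fold change 0.35, SE 0.14, adjusted p = 0.126). Limma voom on the recovered reads, which weights genes by their read counts, called Wnt2b higher (adjusted p = 0.0379, log2 fold change 0.95 with no pseudocount of 1). That test called 25.7% of all genes.

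The other 16 ligand genes were under the testing level. Wnt9a, Wnt6, Wnt5a and Wnt11 had between 65 and 225 reads over the 6 libraries, with mean FPKM from 0.173 to 0.302 in controls and 0.319 to 0.399 in Wtap-βKO, and in each the groups overlapped. Of these, Wnt11 had 10, 9 and 18 reads in the controls and 43, 18 and 22 in Wtap-βKO (voom on genes with at least 10 reads, log2 fold change 1.02, SE 0.461, adjusted p = 0.143). Wnt3, Wnt10b, Wnt7b, Wnt9b, Wnt7a, Wnt1 and Wnt16 had at most 6 reads each over all 6 libraries. The 6 reads of Wnt7b were all in Wtap-βKO, 3 in replicate 1 and 3 in replicate 3. Wnt10a, Wnt2, Wnt3a, Wnt8a and Wnt8b had no read in any library. A floor of 3 reads per library allows up to 0.0770, 0.0842, 0.0688, 0.109 and 0.0563 FPKM for these genes in that order. Such floors cover counting error only. These ligand genes include neighbours on the chromosome: Wnt6 lies 6193 bases from Wnt10a on chromosome 1, Wnt3a 16175 bases from Wnt9a and Wnt9b 24328 bases from Wnt3 on chromosome 11, and Wnt10b 11706 bases from Wnt1 on chromosome 15. In the first 2 of these 4 pairs 1 gene had reads in every library (Wnt6 and Wnt9a) and its neighbour had none in any.

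Sfrp5 had the highest level of the 8 SFRP and DKK genes taken by name, below the related Frzb described with the wider list. Its coordinates are bases 42197971 to 42202252 of chromosome 19, minus strand, and SFRP5 is a soluble decoy that resembles the ligand-binding part of Frizzled. Sfrp5 was 40.7, 32.1 and 34.0 FPKM in controls 1, 2 and 3, against 59.0, 58.5 and 69.9 in Wtap-βKO 1, 2 and 3. Every Wtap-βKO library was above every control, and the highest was replicate 3. Its mean rose from 35.6 ± 4.50 to 62.5 ± 6.45 (SD, n = 3 each; log2 fold change 0.80, SE 0.108, adjusted p = 0.00408). The ratio of Sfrp5 to Wnt4 FPKM was 0.729, 0.560 and 0.611 in the controls and 0.760, 0.596 and 0.896 in Wtap-βKO, and these overlapped, so the antagonist and the ligand were higher by amounts that the replicate spread does not separate.

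Dkk3, a divergent member of the DKK family, was 2.97, 1.41 and 2.39 FPKM in the controls and 3.63, 2.94 and 3.06 in Wtap-βKO (adjusted p = 0.177). Sfrp1 was 1.49, 0.579 and 0.784 in the controls and 1.504, 1.26 and 1.90 in Wtap-βKO (adjusted p = 0.179). In both genes control replicate 2 was the lowest library and control replicate 1 reached into the Wtap-βKO range. Dkk3 and Sfrp1 are also expressed by stromal cells, and the mesenchymal marker sum given above was higher in every Wtap-βKO library than in any control, whose part in these values was not tested. Dkk2, an LRP6-binding antagonist, was 0.790 ± 0.0709 and 0.854 ± 0.322 (adjusted p = 0.895), and its lowest library was replicate 2 labelled Wtap-βKO at 0.482, beside 1.03 and 1.05 in replicates 1 and 3 (log2 fold change 0.04, and 0.19 without replicate 2, adjusted p = 0.295). Sfrp2 had 17 reads in the controls and 21 in Wtap-βKO. Dkk4 had 3 reads, all in controls, Sfrp4 had 4, all in Wtap-βKO, and Dkk1, the classic inhibitor of LRP6, had none in any library (up to 0.0783 FPKM at the floor of 3 reads).

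**Figure D2:**
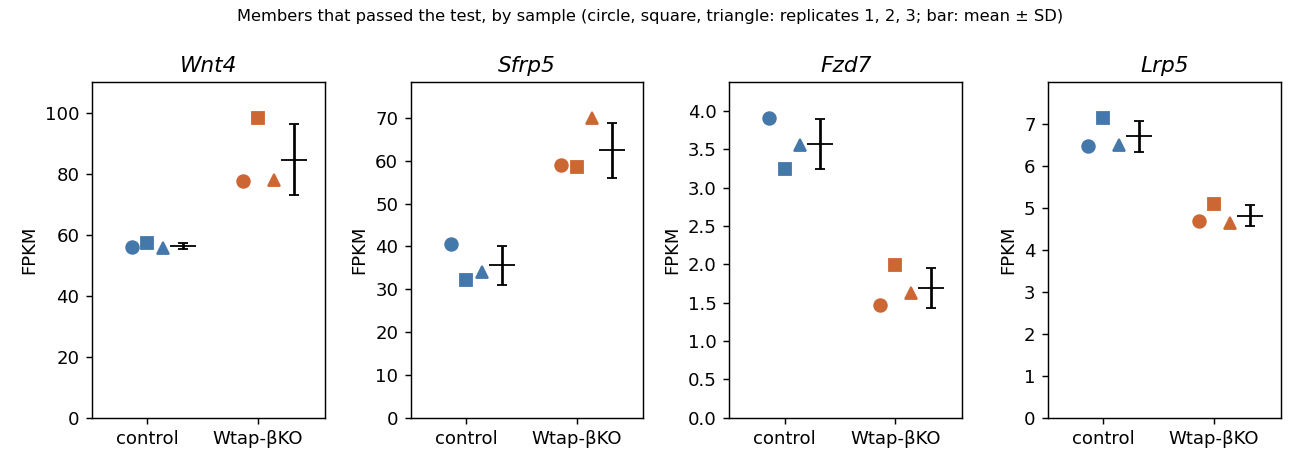
FPKM by library for Wnt4, Sfrp5, Fzd7 and Lrp5, on axes that start at 0, with replicate numbers as symbols and the mean ± SD of each group beside them. The groups do not overlap in any of the 4 panels: Wnt4 and Sfrp5 are higher and Fzd7 and Lrp5 lower in Wtap-βKO.

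Among the Frizzled receptors 1 of 7 genes tested changed, with 20.1% of all genes as the background. Fzd7, a receptor best known from stem and progenitor cells, occupies bases 59482424 to 59486955 of chromosome 1, plus strand, and its promoter window is the one above with a TCF/LEF motif. Windows of Wnt5b and Tcf7l2, which did not pass, also held such a motif. So did windows of Wnt11, Wnt3 and Dkk1, which were under the testing level. Fzd7 was 3.90, 3.24 and 3.56 FPKM in controls 1, 2 and 3, against 1.47, 1.98 and 1.63 in Wtap-βKO 1, 2 and 3. The highest Wtap-βKO library was well under the lowest control. Its mean fell from 3.57 ± 0.332 to 1.69 ± 0.262 (SD, n = 3 each; log2 fold change -0.76, SE 0.104, adjusted p = 0.00416). On log2(FPKM + 1) the fall of a gene at this level is understated, and voom on the reads (829 in the controls and 414 in Wtap-βKO) gave -1.08 on the log2 scale.

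Fzd8, Fzd4, Fzd3 and Fzd6 were the other Frizzled genes near 4 FPKM, and in the controls these 4 and Fzd7 lay within 3.57 and 4.43 mean FPKM. Fzd8 was 4.47, 4.01 and 3.38 in the controls and 5.18, 4.79 and 4.78 in Wtap-βKO (adjusted p = 0.1003). Fzd4, which also serves the ligand Norrin in endothelium, was 3.72, 3.94 and 4.12 in the controls and 4.58, 4.71 and 4.73 in Wtap-βKO (log2 fold change 0.20, SE 0.066, adjusted p = 0.0734). Fzd8 and Fzd4 did not overlap between the groups and did not pass. Fzd4 passed when the values were rescaled without the 50 highest genes (adjusted p = 0.0499) or scaled to total recovered reads (0.0200).

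Fzd3, known from axon guidance, was 4.26, 4.46 and 4.28 FPKM in the controls and 4.24, 3.86 and 4.55 in Wtap-βKO, and its log2 difference of -0.03 had a 95% interval from -0.21 to 0.14. Fzd6, a receptor of planar polarity, was 4.15, 4.14 and 4.99 in the controls and 3.89, 1.31 and 3.54 in Wtap-βKO, with replicate 2 far below the rest. The groups of Fzd6 did not overlap, but the test did not pass (log2 fold change -0.54, SE 0.274, adjusted p = 0.209), and without replicate 2 labelled Wtap-βKO the log2 fold change was -0.20 (adjusted p = 0.210). Fzd1 (1.03 and 1.37 mean FPKM) and Fzd5 (0.648 and 0.724) overlapped between the groups (adjusted p = 0.308 and 0.719). Fzd2 had 38 and 31 reads in the groups and Fzd10 had 9 and 15, while the 7 reads of Fzd9 were all in Wtap-βKO, 4 in replicate 1 and 3 in replicate 2.

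The make-up of Frizzled RNA differed between the groups more than its sum. Summed Frizzled FPKM was 22.1 ± 0.626 in controls and 20.8 ± 1.89 in Wtap-βKO, and the libraries overlapped. Fzd7 took 17.1%, 15.1% and 16.1% of the sum in controls 1, 2 and 3, against 6.62%, 10.6% and 7.58% in Wtap-βKO 1, 2 and 3. Fzd8 took 17.8% ± 2.30 and 23.7% ± 1.73, and Fzd4 17.8% ± 1.24 and 22.6% ± 2.40, again with no overlap. Shares of 1 sum move against each other, and these are given as a description without a test.

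**Figure D3:**
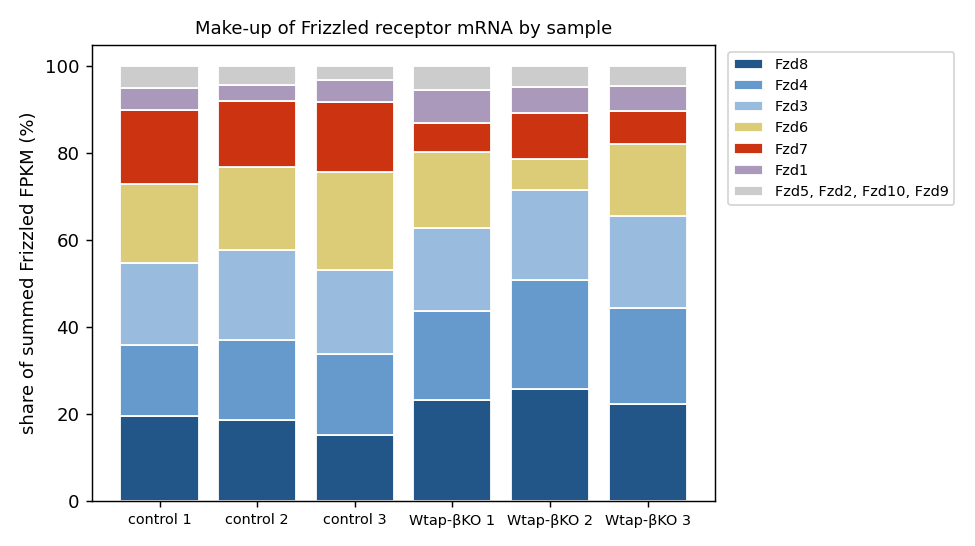
Share of summed Frizzled FPKM (percent, stacked bars from 0 to 100) taken by each receptor gene in each of the 6 libraries. The red Fzd7 segment is narrower in all 3 Wtap-βKO bars than in any control bar, and the Fzd6 segment is narrowest in replicate 2 labelled Wtap-βKO.

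Of the co-receptor genes, Lrp5 fell and Lrp6 did not pass. Lrp5 spans bases 3584828 to 3686564 of chromosome 19, minus strand, and LRP5 has been linked to bone mass and to insulin secretion. Lrp5 was 6.46, 7.13 and 6.50 FPKM in controls 1, 2 and 3, against 4.69, 5.09 and 4.63 in Wtap-βKO 1, 2 and 3. All Wtap-βKO libraries were below all controls. Its mean fell from 6.69 ± 0.374 to 4.803 ± 0.253 (SD, n = 3 each; log2 fold change -0.41, SE 0.070, adjusted p = 0.00932). Lrp6 was 9.36, 8.91 and 8.61 in the controls and 9.67, 8.83 and 8.69 in Wtap-βKO, with a log2 difference of 0.01 and a 95% interval from -0.14 to 0.17 that does not reach the value of Lrp5. The ratio of Lrp6 to Lrp5 was 1.45, 1.25 and 1.33 in the controls and 2.06, 1.73 and 1.88 in Wtap-βKO, with no overlap.

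The receptor turnover genes did not pass. Lgr4, a receptor for R-spondins, was 4.53, 4.24 and 4.19 FPKM in the controls and 5.09, 5.38 and 4.81 in Wtap-βKO, with no overlap (log2 fold change 0.20, SE 0.070, adjusted p = 0.0931), and it passed only when scaled to total recovered reads (0.0356). Znrf3, a membrane ubiquitin ligase that removes Frizzled receptors and is itself a Wnt target, was 3.62, 3.49 and 3.11 in the controls and 3.43, 2.18 and 2.76 in Wtap-βKO (log2 fold change -0.23, adjusted p = 0.258). Without replicate 2 labelled Wtap-βKO the Znrf3 log2 fold change was -0.11 (adjusted p = 0.511). Rnf43, the related ligase, was under the testing level at 0.270, 0.222 and 0.274 in the controls and 0.413, 0.451 and 0.486 in Wtap-βKO, with 31, 23 and 32 reads against 51, 53 and 55. The Rnf43 groups did not overlap, and voom on genes with at least 10 reads put the difference at 0.80 on the log2 scale (SE 0.283, adjusted p = 0.0583). Lgr5, a stem cell marker, had 35 reads in the controls, 21 of them in replicate 1, and 30 in Wtap-βKO, 19 of them in replicate 3.

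None of the 6 cytoplasmic transducer genes passed limma. An unadjusted p under 0.05 was reached by 0 of them, and voom called 0. Ctnnb1, which encodes β-catenin, was 88.3, 93.1 and 84.1 FPKM in the controls and 90.0, 83.5 and 90.6 in Wtap-βKO. The Ctnnb1 groups overlapped, and the log2 difference of -0.01 had a 95% interval from -0.15 to 0.14. Axin1, the scaffold of the destruction complex, was 21.2, 21.2 and 19.8 in the controls and 20.1, 20.9 and 20.2 in Wtap-βKO, with an interval from -0.15 to 0.10. Dvl1, a Dishevelled gene, was 16.1, 16.6 and 15.3 in the controls and 16.3, 18.3 and 17.0 in Wtap-βKO (adjusted p = 0.318). Dvl3 was at 14.8 ± 0.517 and 13.99 ± 0.763, and Dvl2 at 4.49 ± 0.197 and 3.88 ± 0.650 (log2 fold change -0.18, adjusted p = 0.277). Dvl2 was 3.33, 4.59 and 3.71 in Wtap-βKO 1, 2 and 3. Without replicate 2 labelled Wtap-βKO the Dvl2 log2 fold change was -0.28 (adjusted p = 0.0568). Axin2, the common read-out of canonical signalling, was 2.95 ± 0.350 and 2.63 ± 0.245 FPKM (log2 fold change -0.12, 95% interval from -0.35 to 0.11, adjusted p = 0.426). The pseudocount of 1 narrows both the difference and its interval at this level, and voom gave -0.17 (SE 0.131, adjusted p = 0.380). Exons of Ctnnb1 and Dvl2 overlap those of genes on the opposite strand (Ulk4 and Acadvl), on 15.1% and 19.7% of their exon bases together with a microRNA gene in each. The libraries do not mark strand, so reads there cannot be told apart, and 12 of the 53 genes had some such exon overlap, Fzd6, Fzd5, Axin2, Dvl1 and Tcf7l1 among those tested as well. None of the 4 genes that passed had any.

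The nuclear factors were low in whole islets. Tcf7l1 was 1.21, 1.5004 and 1.62 FPKM in the controls and 1.66, 1.85 and 1.52 in Wtap-βKO (adjusted p = 0.417). Tcf7l2, the diabetes-linked factor, was 0.882, 0.985 and 0.759 in the controls and 1.22, 1.14 and 0.790 in Wtap-βKO (adjusted p = 0.537), on 389 and 498 reads, and both genes overlapped between the groups. Tcf7 had 5, 0 and 2 reads in the controls and 10, 2 and 7 in Wtap-βKO, and Lef1 9, 7 and 3 against 2, 3 and 0. The Lef1 groups touched at 3 reads, with mean FPKM of 0.0427 ± 0.0207 and 0.0104 ± 0.00965, and voom on genes with at least 10 reads did not call Lef1 (adjusted p = 0.175).

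**Figure D4:**
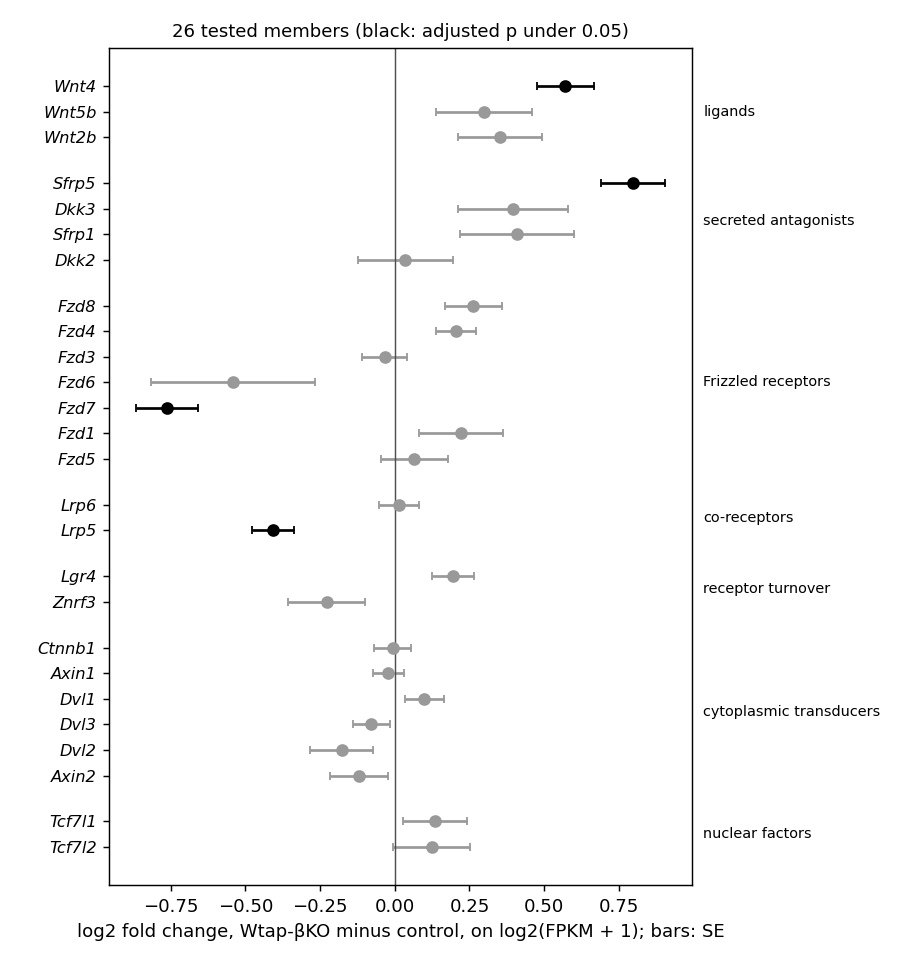
Log2 fold change (Wtap-βKO minus control, on log2(FPKM + 1)) with its SE for the 26 Wnt genes tested, grouped by role. The 4 genes with an adjusted p under 0.05 are black: Sfrp5 at 0.80, Wnt4 at 0.57, Lrp5 at -0.41 and Fzd7 at -0.76.

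Genes near the limits of the test showed how far the calls reach. Fzd4 (adjusted p = 0.0734), Lgr4 (0.0931) and Fzd8 (0.1003) were the closest to passing, each about 1.2-fold higher by mean FPKM (1.19-fold, 1.18-fold and 1.24-fold). Their 95% intervals on the log2 scale ran from 0.05 to 0.36, from 0.03 to 0.36 and from 0.04 to 0.49. Of the 26 genes tested 16 had a log2 fold change above 0 and 10 below, against 49.1% above 0 among all genes tested. The 3 ligand and 4 antagonist genes tested were all above 0, with log2 fold changes from 0.30 to 0.57 for the ligands and from 0.04 to 0.80 for the antagonists, while 5 of 6 cytoplasmic transducers were below 0. These signs are a description, and Dkk2, Ctnnb1, Axin1, Dvl3, Fzd3 and Lrp6 changed sign under at least 1 alternative processing.

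A wider list of 76 pathway genes outside the name patterns was examined beside them, and 59 were tested, of which 6 rose and 9 fell (25.4%, with 20.1% of all genes as the background). Leaving out control replicate 1, 2 or 3 left 2 higher in each case and 3, 4 and 3 lower, leaving out replicate 1 or 3 labelled Wtap-βKO left 3 higher and 6 lower, and leaving out replicate 2 gave 7 and 7. Ligand secretion genes did not pass, with Wls, the carrier of lipid-modified Wnt proteins, at 25.5 ± 3.04 and 25.1 ± 1.29 FPKM. Of 5 further antagonist genes tested, Apcdd1, a membrane inhibitor, rose from 1.40 ± 0.0995 to 2.65 ± 0.725 (adjusted p = 0.0330), a call that 6 of 17 alternatives did not keep (highest adjusted p 0.0968). Frzb, an SFRP relative at a higher level than Sfrp5, was 101 ± 4.34 and 113 ± 10.8 (adjusted p = 0.210), and it passed with quantile normalization (0.0325) and with scaling to total recovered reads (0.0381). Without replicate 2 labelled Wtap-βKO the Frzb log2 fold change went from 0.16 to 0.08 (adjusted p = 0.348). Rspo4, the 1 R-spondin gene tested, was 13.5, 14.2 and 13.6 in the controls and 16.1, 7.94 and 15.3 in Wtap-βKO (log2 fold change -0.12, adjusted p = 0.753). The low library was replicate 2, and without it the Wtap-βKO mean was 15.7 and the log2 fold change turned to 0.18 (adjusted p = 0.0686).

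In the destruction complex and its turnover 3 of 15 genes tested fell, each by less than 1.25-fold. Among all genes tested 11.3% were lower and 8.77% higher, and the small counts by list were not tested against these shares. Csnk1a1, the kinase that primes β-catenin, fell from 38.9 ± 1.21 to 32.7 ± 0.722 (adjusted p = 0.0181), Tnks2, a tankyrase that destabilises Axin, from 23.3 ± 0.240 to 19.7 ± 0.513 (0.0188), and Btrc, which encodes the β-TrCP ubiquitin ligase subunit, from 7.06 ± 0.321 to 5.84 ± 0.284 (0.0457). Of 18 alternatives 4, 7 and 11 did not keep these calls (highest adjusted p 0.0845, 0.146 and 0.195). Of 15 noncanonical and polarity genes, Daam1, a formin downstream of Dishevelled, fell from 15.9 ± 0.257 to 12.5 ± 0.998 (adjusted p = 0.0183), and the polarity gene Vangl1 rose from 1.22 ± 0.165 to 1.96 ± 0.303 (0.0460), calls that 4 of 18 and 8 of 17 alternatives did not keep (highest adjusted p 0.0757 and 0.134). Celsr1, a polarity cadherin named after its values were seen, fell 2.47-fold, from 1.24 ± 0.0963 to 0.504 ± 0.1005 (0.0150), a call lost without control replicate 1 (0.0517) or 2 (0.0558).

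On the log2(FPKM + 1) scale, which understates low genes such as Celsr1, the largest changes among the genes of the wider list that passed were those of the nuclear co-factors Tle3 and Tle1. Tle3, a Groucho-family co-repressor of TCF factors, was 12.8, 13.8 and 11.6 FPKM in the controls and 5.54, 6.61 and 5.21 in Wtap-βKO. It fell 2.20-fold (log2 fold change -1.02, SE 0.099, adjusted p = 0.00124) and the groups did not overlap. Tle1, of the same family, was 7.30, 6.85 and 6.001 in the controls and 11.5, 18.5 and 10.5 in Wtap-βKO. It rose 2.01-fold (log2 fold change 0.87, SE 0.196, adjusted p = 0.0229), and replicate 2 was the highest. Without replicate 2 labelled Wtap-βKO the rise was 1.63-fold (log2 fold change 0.64, adjusted p = 0.00877), and the call was lost without any 1 of the 3 controls (0.0567 to 0.0767) and with no filter (0.0577). Bcl9l, a co-activator that binds β-catenin, rose from 4.83 ± 0.484 to 8.60 ± 0.230 (adjusted p = 0.00172), and Ctnnbip1, an inhibitor of the β-catenin and TCF contact, fell from 9.68 ± 1.31 to 6.93 ± 0.599 (0.0303, lost in 7 of 18 alternatives with p up to 0.0878). Exons of Bcl9l, Ctnnbip1, Tle1, Btrc and Vangl1 overlap another gene on 9.65%, 25.8%, 2.84%, 1.39% and 0.112% of their bases.

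Of 7 target genes tested outside the name patterns, 2 rose and 2 fell, with 8.77% higher and 11.3% lower among all genes tested. Cd44, an adhesion receptor, was 5.51, 5.37 and 5.27 FPKM in the controls and 11.4, 9.44 and 10.8 in Wtap-βKO, a rise of 1.96-fold (adjusted p = 0.00104). Ephb2, an ephrin receptor gene, rose from 1.07 ± 0.0142 to 1.77 ± 0.140 (0.0224, lost in 7 of 17 alternatives with p up to 0.0779). Myc fell from 4.89 ± 0.762 to 3.12 ± 0.371 (0.0273, lost in 7 of 17 alternatives with p up to 0.0907), and Vegfa, the endothelial growth factor gene, from 154 ± 7.90 to 119 ± 4.25 (0.00830). The target genes that passed thus went both ways, and each also has other regulators than Wnt signalling. Under the testing level were 7 more of the list. Nkd1 (25 reads in controls and 65 in Wtap-βKO) and Tnfrsf19 (14 and 69) were higher without overlap, as were 19.1% of all genes tested. That share covers only genes that reached the testing level, and no share was computed for genes under it. Nkd2 (56 and 99) and Ephb3 (77 and 124) overlapped, and Sp5, Ascl2 and Cdx1 had at most 5 reads each over all libraries.

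**Figure D5:**
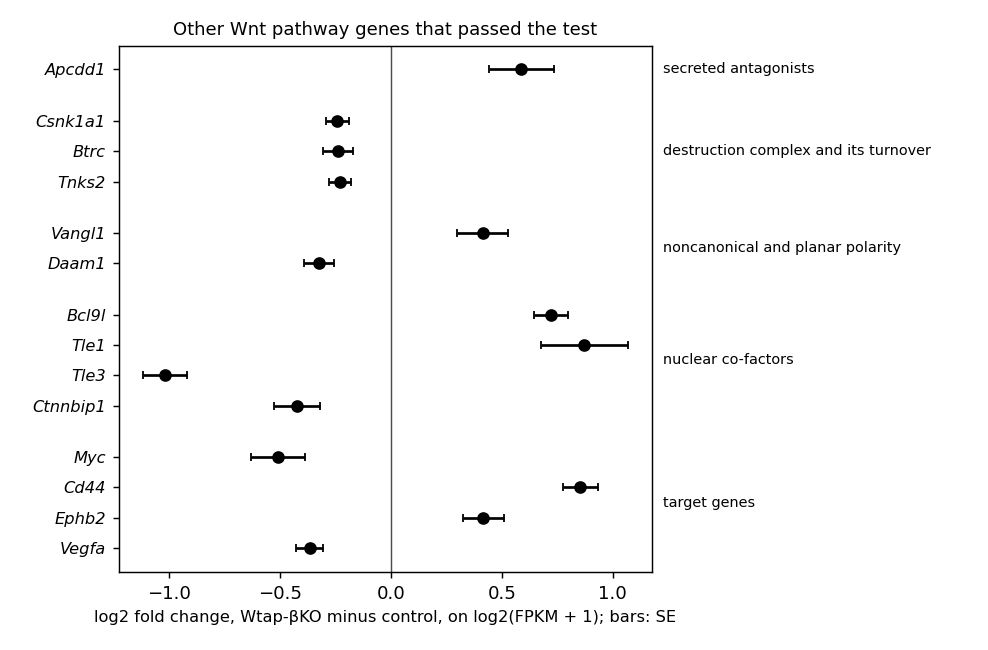
Log2 fold change (Wtap-βKO minus control, on log2(FPKM + 1)) with its SE for the 14 genes of the wider Wnt list that passed the test at a mean of at least 1 FPKM, grouped by list. Tle3 (-1.02) and Tle1 (0.87) lie at opposite ends, and Cd44 is at 0.85.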

How the data were processed

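Poly-A RNA of pooled islets was sequenced in pairs on an Illumina NovaSeq without a strand-marking step, per the labels' protocols. The authors deposited 1 table of FPKM values with gene lengths, per the file headers. The submitters' processing notes name DESeq2 1.20.0, featureCounts 1.5.0-p3, HISAT2 2.0.5 and CASAVA and the builds GRCm38 and mm10, without roles. The sources used here do not give the annotation. In GENCODE M21, 51 of 53 Wnt genes had the same coordinates. FPKM times gene length, divided by a constant estimated for each library, came out as whole reads to within 0.01 for 100% of values above 0, and these are the recovered reads.

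FPKM was used as deposited. Genes with a mean of at least 0.5 FPKM (15927) were fitted as log2(FPKM + 1) with limma 3.58.1 in R 4.3.3 (lmFit, then eBayes with trend). P-values are two-sided, adjusted by Benjamini-Hochberg across these genes, with a threshold of 0.05. Folds are ratios of mean FPKM, and intervals are 95% intervals from limma. The labels call the samples independent biological replicates. Scripts were tested on simulated data. Per-sample values are named for every Wnt gene that passed and for up to 3 of the highest genes in each role. Fzd6, Wnt11 and Lef1 were added after their values were seen, and so was Axin2, with group means only. Values of some libraries are also given for Dkk2, Dvl2, Wnt7b, Fzd9 and Lgr5. From each list of the wider pathway up to 4 genes that passed with a mean of at least 1 FPKM are named, and genes there that did not pass were picked after their values were seen. The Wnt genes and all lists were chosen with earlier results of these data known. Python 3.11.15 with pandas 2.3.3, SciPy 1.17.1 and matplotlib 3.10.9 was used.

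Alternatives were quantile normalization, rescaling without the 50 highest genes, scaling to total recovered reads, pseudocounts of 0.1 and 0.5, no filter, a mean of at least 5 FPKM, no variance trend, a robust trend, limma voom on recovered reads, a block for the replicate number, and leaving out each library. Voom on genes with at least 10 reads was added after the data were seen.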

Additional observations from a re-analysis of the deposited data

How the results depend on the processing

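Wnt4, Sfrp5 and Lrp5 kept their direction and call under all 18 alternatives, and Fzd7 under the 17 in which it was tested, with adjusted p up to 0.0355, 0.0202, 0.0385 and 0.0220. Of the 26 Wnt genes 2 were called higher and 2 lower. With scaling to total recovered reads 4 were higher, and the count of lower genes was 1 at a mean of at least 5 FPKM, where Fzd7 is not tested. Leaving out 1 library gave 2 higher and 2 lower in each case.

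For the wider list, the 6 higher and 9 lower genes became 11 and 3 when scaled to total recovered reads. With no filter 2 were higher, and at a mean of at least 5 FPKM 3 were. Leaving out 1 library gave 2 to 7 higher and 3 to 7 lower. Among all genes 1397 were higher and 1798 lower (43.7% of calls higher). Scaled to total recovered reads these were 2334 and 1094 (68.1%), and without the 50 highest genes 53.8% were higher. These scalings moved the median of all genes to 0.08 and 0.03 on the log2 scale. Leaving out 1 library gave 774 to 1379 higher and 1020 to 1834 lower. The library size that the deposited FPKM imply was 0.988, 0.966 and 0.952 of the recovered reads in controls 1, 2 and 3. In Wtap-βKO 1, 2 and 3 it was 1.07, 1.04 and 1.04. Scaling to total recovered reads therefore raised every Wtap-βKO value relative to the controls. Why these sizes differed was not tested. The cause of the other shifts was not tested, beyond the smaller number of samples or genes where a library or a filter is involved.

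Some genes far from the threshold changed sign on the log2 scale. Ctnnb1 (-0.01) was 0.0555 with quantile normalization, 0.0329 rescaled without the 50 highest genes and 0.1051 with total-read scaling, and -0.0434 to 0.0297 with 1 library left out. Axin1 (-0.02) was 0.0355, 0.0173 and 0.0869 under the same 3 scalings. With total-read scaling Dvl3 (-0.08) was 0.0284 and Fzd3 (-0.03) was 0.0578. With 1 library left out Fzd3 was -0.0803 to 0.0156, Lrp6 (0.01) was -0.0292 to 0.0427 and Dkk2 (0.04) was -0.0441 to 0.1892. Dkk2 was -0.0003 with quantile normalization. In the wider list Wls (-0.02) was 0.0648, 0.0230 and 0.0932 under those 3 scalings. With 1 library left out Wls was -0.1152 to 0.0400 and Rspo4 -0.2881 to 0.1811.

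With the replicate block the counts were 2 and 2 for the Wnt genes, 4 and 7 for the wider list, and 1148 and 1490 for all genes. The labels state no link between same-numbered samples beyond the number. Correlations of their deviations were 0.0293, 0.0377 and 0.0185, small values, although each sample correlated best with its own number. Whether same-numbered samples share a batch was not tested. Depth limits the 27 genes under 0.5 FPKM, of which 6 had no read and 10 had at most 20.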
